A study of Mus musculus with 12 samples.

Results

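Lining synovial fibroblasts are the cells that the authors annotated as Lining in their table of filtered single cells, and 158 of the 8042 annotated cells carry that name. All 158 came from the 2 wells sorted for fibroblasts, where 3548 annotated cells could be matched to the deposited counts. The other synovial fibroblasts of those wells bear 4 annotations, Mmp3+ (1658 cells), Il6+ (771 cells), Pi16+ (629 cells) and Cd200+ (109 cells), and these 3167 cells are called sublining fibroblasts here. The wells also held 127 osteoblasts and 96 chondrocytes. No annotated barcode was shared by both wells.

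The mice were 8-10 weeks old, of the strain R5 x R26tdTomato with the genotype Il5 wt/Cre; R26 tdTom/tdTom, so healthy and arthritic groups alike carried the Cre allele at the Il5 locus and the tdTomato reporter. Cells of the ankle and wrist synovium were sorted as viable, CD45- and GR-1-, labelled with hashtag antibodies and run on droplets, with 3 hashtags in each well. The first experiment held an untreated hashtag (healthy 1), one with serum transfer arthritis (STA 1), in which serum with arthritogenic antibodies sets off joint inflammation, and one with STA plus an interleukin-23 minicircle (Il23mc 1), a DNA circle from which the cytokine is made. The second held an untreated hashtag (healthy 2) and one each of STA called mild and severe in the authors' table. Cells of several animals were pooled, and which animal a cell came from was not given. A hashtag is therefore the replicate here, and p-values measure the spread between hashtags.

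The synovial membrane is a thin lining layer that faces the joint cavity, over a sublining of connective tissue with vessels and nerves. Lining fibroblasts make the lubricant lubricin (the product of Prg4) and hyaluronan for the synovial fluid. In arthritis the lining thickens, and its fibroblasts are known as a source of enzymes that break down cartilage and bone matrix. Sublining fibroblasts are usually told apart by Thy1.

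The conditions were read from hashtag oligos, whose 15 bases per the labels are shown because every comparison between conditions rests on them. The first marked the healthy cells of both experiments, the second STA 1 and mild STA, and the third Il23mc 1 and severe STA.
condition_1: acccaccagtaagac
condition_2: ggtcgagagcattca
condition_3: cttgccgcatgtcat

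For Clic5 and Tspan15, the pair of genes with the highest least ratio to sublining fibroblasts over the 6 hashtags, the 250 bases before the RefSeq start are printed (GRCm38.p6). Whether these bases bear on that difference was not tested. The Clic5 window lies at chr17:44188322-44188571 on the plus strand. The Tspan15 window lies at chr10:62231219-62231468 on the minus strand. Capitals mark GGGCGG or its reverse complement (the GC box) in Clic5 and TGANTCA (the AP-1 motif) in Tspan15.
Clic5: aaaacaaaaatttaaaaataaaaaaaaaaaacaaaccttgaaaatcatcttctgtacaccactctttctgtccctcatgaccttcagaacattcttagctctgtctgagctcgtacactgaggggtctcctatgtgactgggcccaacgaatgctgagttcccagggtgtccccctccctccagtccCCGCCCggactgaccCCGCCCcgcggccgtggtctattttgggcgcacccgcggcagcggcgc
Tspan15: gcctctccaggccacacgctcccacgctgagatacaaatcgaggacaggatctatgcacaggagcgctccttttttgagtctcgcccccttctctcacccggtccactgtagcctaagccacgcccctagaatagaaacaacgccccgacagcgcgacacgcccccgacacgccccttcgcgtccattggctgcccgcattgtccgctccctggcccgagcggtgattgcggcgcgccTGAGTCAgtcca
Both strands were searched. Of 32851 such windows, 32.7% held GGGCGG and 6.75% held TGANTCA. Of the 20 genes highest in Lining cells described below, 10 had a window, 5 of these genes with a GC box and 1 with the AP-1 motif. A match describes the letters and is not a site of binding.

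Healthy 1 gave 49 Lining cells, STA 1 54, Il23mc 1 17, healthy 2 6, mild STA 13 and severe STA 19. Their summed unique molecular identifiers (UMIs, 1 for each captured RNA molecule) ran from 113581 in healthy 2 to 850368 in STA 1. The median UMIs of a Lining cell ran from 13412 in healthy 1 to 24118 in mild STA, and that of a sublining fibroblast from 7052 in healthy 1 to 17554 in Il23mc 1. Cells of over 40000 UMIs held much of the small groups: 1 cell held 43.5% of the Lining UMIs of healthy 2, 3 cells 48.6% of those of mild STA and 2 cells 26.2% of those of severe STA. Values below are CPM, UMI counts of the summed Lining cells of a hashtag scaled to a common total of UMIs, unless stated otherwise. Every gene is given against itself across cells or conditions, and a level is not compared between genes.

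The markers of the class were high in cells with the label. The label was drawn from these same cells, so this describes the class and is no test. Each Lining cell had a UMI of Prg4 (chromosome 1, 150449412 to 150466165, minus strand, GRCm38, the gene of lubricin), but so did 84.3% of sublining cells and 74% of osteoblasts, a cell type of bone (median UMIs of 14933 in a Lining cell and 13932 in an osteoblast), so a single UMI does not mark a Lining cell. The amount differed in the median, with overlap between classes. Prg4 took at least 1% of the UMIs in 147 of 158 Lining cells, 221 of 1658 Mmp3+ cells, 13 of 771 Il6+ cells and 20 of 96 chondrocytes. It took a median of 6.11% of the UMIs of a Lining cell. The medians were 0.0734% in Mmp3+, 0.0215% in Il6+, 0.0207% in Pi16+, 0.0149% in Cd200+ fibroblasts and 0.324% in chondrocytes. At least 3 of the markers Prg4, Clic5, Htra4 and Tspan15 had a UMI in 140 of the 158 Lining cells (88.6%), in 61 of 1658 Mmp3+ cells (3.68%), in 1 of 771 Il6+ cells and in none of the Pi16+ and Cd200+ cells. The same held for 6 of 96 chondrocytes (6.25%) and none of the osteoblasts.

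**Figure D1:**
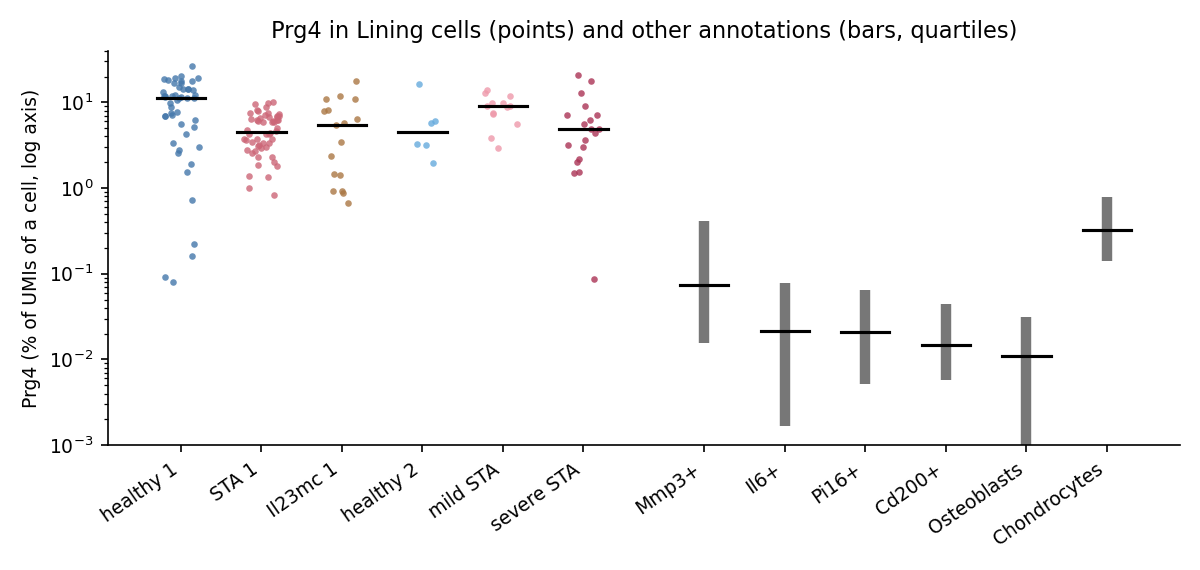
Prg4 as a percent of the UMIs of a cell (log axis). Points are the 158 Lining cells by hashtag, thick bars are the quartiles of other annotations (a lower quartile of 0 is drawn to the axis), and black lines are medians. The Lining medians lie between 4.51% and 11.2%, and 11 Lining cells lie under 1%, 5 of them in healthy 1.

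Lining cells varied among themselves. In healthy 1, Prg4 ranged from 0.0798% to 26.3% of the UMIs of a cell with a median of 11.2%. The median was 4.51% in STA 1, 5.4% in Il23mc 1, 4.54% in healthy 2, 9.03% in mild STA and 4.84% in severe STA, so healthy 1 was the highest and healthy 2 next to the lowest. All 4 markers were found in 103 Lining cells, 3 in 37, 2 in 17 and 1 in 1 cell.

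Markers of most other cells were low in the Lining sums, with exceptions, some of which rest on single genes or single cells. Of 9 macrophage markers, 5 had no UMI in any Lining cell, among them C1qa and Cx3cr1, and the 9 summed to between 0 and 15.3 CPM. All 3 adipocyte markers had none. Endothelial markers summed to at most 44.4 CPM. The mural list summed to between 221 and 387 CPM through Rgs5. Epithelial markers reached 1051 CPM in severe STA, where 380 of the 383 Krt14 UMIs lay in 1 cell, and lay between 5.42 and 45.9 CPM in the other hashtags. That cell is given again beside each result it touches. Chondrocyte markers summed to 152 to 599 CPM in healthy and 57.6 to 186 CPM in STA Lining cells, against 1293 to 1919 CPM in sublining cells, and their part in the results was not tested. Osteoblast markers summed to 423 to 571 CPM in healthy and 136 to 162 CPM in STA Lining cells, against 31.8 to 221 CPM in sublining cells. Of these markers, Bglap2 had a UMI in 33 of 49 Lining cells of healthy 1 and in 4.67% of sublining cells.

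The annotation comes from the same cells, so the differences between Lining and sublining fibroblasts describe the class and were not tested. With at least 50 UMIs over all Lining cells, 45 of 6020 genes (0.748%) were at least 4-fold higher than in sublining fibroblasts in every one of the 6 hashtags, 44 of them with a Lining UMI in each hashtag. With at least 50 sublining UMIs, 108 of 12643 genes (0.854%) were at least 4-fold lower in each. The ratios carry a pseudocount of 0.5 UMI, which sets the value where a hashtag has no Lining UMI. Against single annotations, 42 genes were higher than in Mmp3+, 67 than in Il6+, 66 than in Pi16+ and 55 than in Cd200+ cells.

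Clic5, a chloride intracellular channel protein tied to the actin cortex, led the higher genes. Its log2 ratio to sublining fibroblasts was 9.03 in healthy 1, 8.06 in STA 1, 7.79 in Il23mc 1, 8.18 in healthy 2, 7.87 in mild STA and 9.51 in severe STA. Clic5 had a UMI in 64.7% to 92.3% of the Lining cells of a hashtag against 2.21% of sublining cells and 1.57% of osteoblasts. Tspan15, a tetraspanin partner of the protease ADAM10, was next, with log2 ratios from 5.63 to 8.01. Htra4, a secreted serine protease, lay between 3.99 and 6.92 and Prg4 between 3.27 and 6.91, both lowest in Il23mc 1 and highest in healthy 1.

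The other genes at the top of the order fall into several roles. Matrix and clotting genes were Col22a1, a collagen of tissue junctions (4.05 to 9.52), and F13a1, the cross-linking subunit of clotting factor XIII (4.03 to 7.48). Receptors and adhesion genes were Itga6, the laminin-binding integrin alpha 6 (3.47 to 4.57), and Megf10, a receptor for engulfment of dying cells (4.36 to 8.07). With them stood Calcrl, a chain of the receptors of calcitonin gene-related peptide and adrenomedullin (2.91 to 3.46). Ramp1, a partner chain of Calcrl, was lower than in sublining cells in every hashtag. A signal among the higher genes was Sema3a, an axon-repelling semaphorin (3.33 to 4.86). Areg, an EGF receptor ligand, had no Lining UMI in healthy 2 and holds its place there through the pseudocount alone. Gchfr, the feedback regulator of GTP cyclohydrolase (4.62 to 7.55), Aldh1a3, a retinoic acid synthase (3.23 to 6.12), Dlx3, a homeobox factor (3.54 to 4.94), Rgs5, a regulator of G-protein signalling also used as a pericyte marker (4.44 to 8.02), and Chst2, a sulfotransferase (2.88 to 4.48), stood with them, as did Cystm1, Rab37 and Mdga2.

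Genes of several kinds, matrix genes among them, stood at the other end. Apod, a lipid-binding lipocalin, had 73 UMIs in all Lining cells and 73850 in sublining cells, with log2 ratios from -7.44 to -4.58. Aspn, a small leucine-rich proteoglycan, lay at -4.45 or below in each hashtag. Mfap4, a microfibril protein, lay at -4.56 or below, and Ccl11, the eosinophil chemokine eotaxin, at -4.30 or below. Ifi205, Myoc, Fndc1, Itgbl1, Gpc3 and Pi16 filled the rest of the lowest 10, all at -3.73 or below in each hashtag. Of these 10 genes, 8 had no Lining UMI in at least 1 hashtag, so their most negative ratios are set by the pseudocount. The ratios to the sublining sum did not hold alike against each annotation. The median log2 ratio of Ccl11 was -7.33 against Il6+ and -7.18 against Pi16+ cells, but -2.26 against Mmp3+ and -1.81 against Cd200+ cells. That of Pi16 was -5.67, -6.29, -3.20 and 0.37 in the same order.

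**Figure D2:**
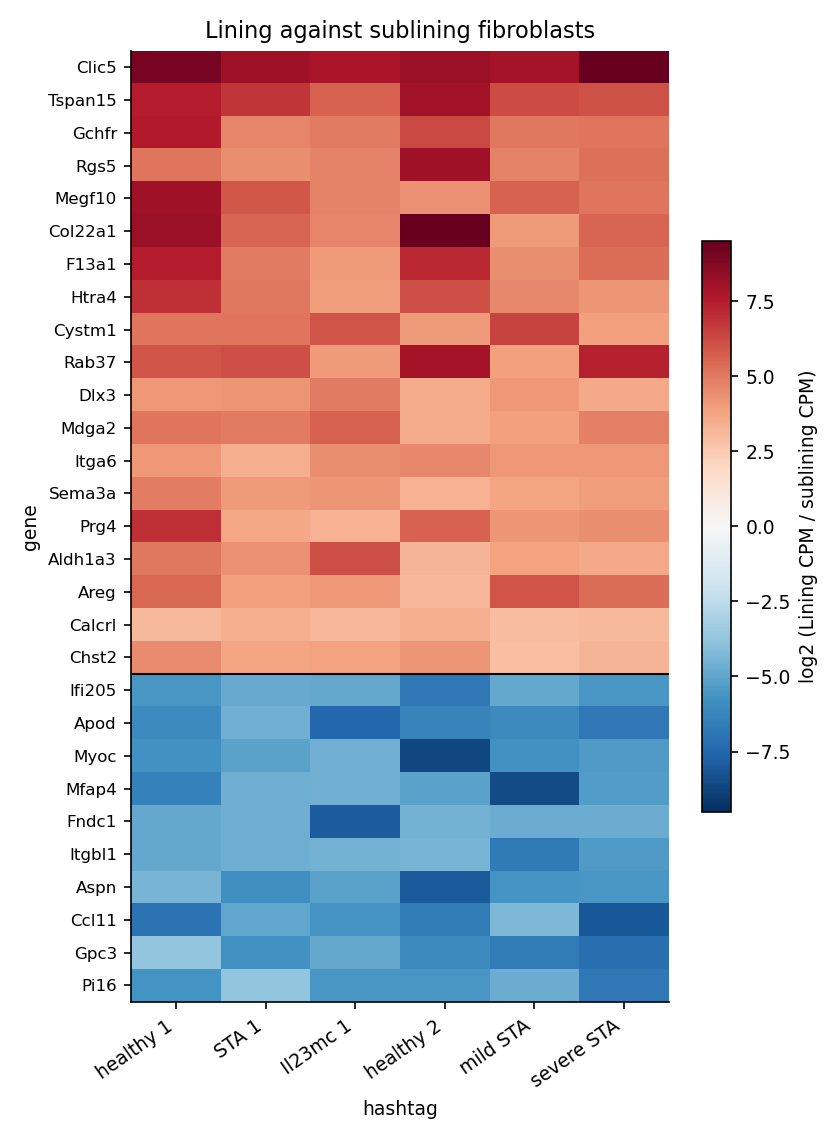
Log2 ratio of the CPM of Lining cells to that of sublining fibroblasts for 19 of the 20 genes highest and the 10 lowest by the least extreme of 6 hashtags (columns). Clic5 lies at 7.79 or above in every hashtag and Ccl11 at -4.30 or below.

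Several gene groups leaned one way too. Lists that hold markers of the annotations describe the classes and are no test. Over all 12744 genes with 50 UMIs, 14.4% were higher in Lining cells in every hashtag and 8.11% were lower, and 12.6% were higher with a Lining UMI in each hashtag. Of 18 lining genes, 9 were higher, among them the class markers Prg4, Clic5, Htra4 and Tspan15, and 3 lower (Vcam1, Cdh11 and Timp3). The other members, Has1 and Cd55 among them, were neither in every hashtag. Of 16 sublining genes, none was higher and 11 were lower, among them Thy1, Cd34, Pi16 and Dpt. Pi16 and Cd200, both among the 11, name sublining annotations. Of 29 collagen and fibre assembly genes, 4 were higher and 18 lower. The higher members were Col4a1 and Col4a2, the basement membrane collagens, with Col22a1 and Fn1 (fibronectin), and Col1a1, Col3a1 and Lox were among the lower. Of 18 proteoglycans, 13 were lower, such as Dcn and Lum, and the 3 higher ones were the cell surface syndecans Sdc1, Sdc2 and Sdc4. Of 22 immediate early genes, which rise within minutes of stimulation or tissue handling, none was higher and 12 were lower. Of 18 oxidative phosphorylation genes, 9 were higher and none lower. Of 9 EGF ligand and receptor genes, 3 were higher with a Lining UMI in each hashtag (Hbegf, Ereg and the inhibitor Errfi1), and of 26 adhesion and barrier genes 10 were higher, such as Tjp1, Itgb8 and Cd44. The marker Clic5 is counted among these 10. Among transcription factors, Creb5, Foxf1, Sox5, Pitx1 and Barx1 were higher in all 6 hashtags.

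The share of Lining cells did not move one way with arthritis. Lining cells made up 12% of the fibroblasts in healthy 1 (exact binomial 95% interval 9.02% to 15.6%), 5.73% in STA 1 (4.33% to 7.41%) and 1.78% in Il23mc 1 (1.04% to 2.84%). In the second experiment they made up 2.24% in healthy 2 (0.826% to 4.81%), 4.59% in mild STA (2.47% to 7.73%) and 4.04% in severe STA (2.45% to 6.24%). STA 1 lay below its healthy hashtag, and both STA hashtags of the second experiment lay above theirs within overlapping intervals. The intervals cover counting error only.

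The mean share was 7.12% over 2 healthy hashtags and 4.79% over 3 STA hashtags (two-sided exact permutation test p = 0.8, where the smallest p this design allows is 0.2). The denominator moved as well: Mmp3+ cells numbered 10 in healthy 1 and 655 in STA 1. With Mmp3+ cells left out, Lining cells made up 12.3% in healthy 1, 18.8% in STA 1 and 5.33% in Il23mc 1, and 2.51%, 9.03% and 6.81% in healthy 2, mild and severe STA, which put the mean of STA above that of healthy (11.5% against 7.41%, exact permutation p = 0.6). Fewer Lining cells and more cells of another class cannot be told apart from shares.

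**Figure D3:**
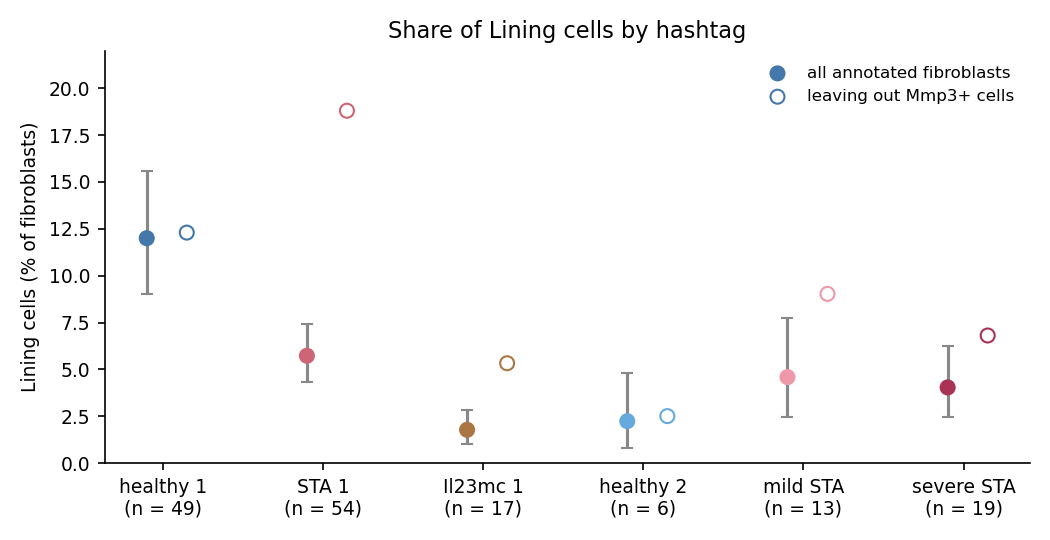
Lining cells as a percent of the annotated fibroblasts of each hashtag (n, Lining cells). Filled points are the share of all fibroblasts with exact 95% binomial intervals, and open points leave out Mmp3+ cells. Healthy 1 has the highest share of all fibroblasts and STA 1 the highest without Mmp3+ cells.

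In arthritis, the summed Lining cells held more RNA of Spp1, Il1rl1, Hp and H2-Q7 and less of Icam1, Tnxb, Ccl2, Aqp1, Ccdc3 and Bglap2. The sums of the 2 healthy and 3 STA hashtags did not overlap for any of them. For Icam1 and Ccl2, nearly all UMIs of healthy 2 lay in 1 cell. Summed counts per hashtag were compared with edgeR's quasi-likelihood test with the experiment as a term, and p-values were adjusted by the Benjamini-Hochberg method. As designed, hashtags under 10 Lining cells stayed out, which removed healthy 2. In that fit of 5 hashtags, 148 genes rose (2.13%) and 160 fell (2.31%), together 4.44% of 6938 genes tested. Its difference is that of STA 1 and healthy 1, and its spread comes from mild against severe STA with 1 residual degree of freedom.

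With healthy 2 and its 6 cells kept, 4 genes rose (0.0565%) and 7 fell (0.099%), together 0.155% of 7074 tested (567 at an unadjusted p under 0.05). Of these 11, 10 were also called in the fit of 5 hashtags, and 301 of the 308 genes called there had the same sign. Of the 308, 48.7% did not overlap between healthy and STA hashtags, against 27.7% of all genes tested. All 11 (100%) called with 6 hashtags did not, against 27.2% of those tested. Within each experiment and without a test, STA 1 was at least 4-fold above healthy 1 for 79 of 2684 genes with 50 UMIs (2.94%) and below it for 41 (1.53%). Mild STA was above healthy 2 for 38 of 1189 (3.2%) and below for 10 (0.841%), and severe STA above for 46 of 1457 (3.16%) and below for 9 (0.618%). The genes below are given with each hashtag.

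Spp1, which encodes the secreted phosphoprotein osteopontin, was at 8.63 CPM in healthy 1 and 17.6 in healthy 2, and at 1042 in STA 1, 1138 in mild STA, 322 in severe STA and 1087 in Il23mc 1. All arthritic hashtags lay far above both healthy ones. The log2 change over 6 hashtags was 6.25 (SE 0.744, edgeR adjusted p = 0.0246), and Spp1 passed the test in all 12 fits that started from 6 hashtags. The RNA was unevenly spread: 24 of 54 Lining cells had an Spp1 UMI in STA 1, 6 of 13 in mild STA and 5 of 19 in severe STA, against 6 of 49 in healthy 1 and 1 of 6 in healthy 2, and 1 cell held 308 of the 420 UMIs of mild STA. The highest cell held 321 of 886 UMIs in STA 1, 81 of 147 in severe STA and 285 of 318 in Il23mc 1.

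Il1rl1, the receptor of interleukin-33, was at 5.75 CPM in healthy 1 and at 0 in healthy 2, against 168 in STA 1, 244 in mild STA, 342 in severe STA and 133 in Il23mc 1. It was found in 1 of 49 and 0 of 6 healthy Lining cells, and in 20 of 54, 5 of 13 and 7 of 19 cells of the STA hashtags. In mild STA 1 cell held 58 of the 90 UMIs, and in severe STA 1 cell held 79 of 156. The log2 change was 5.08 (SE 0.562, edgeR adjusted p = 0.0207), and Il1rl1 was called in 10 of 12 fits. The call was lost without cells over 40000 UMIs (4.88, edgeR adjusted p = 0.121) and with thinned cells (3.21, edgeR adjusted p = 0.24). The change was 9.90 without healthy 1 and 9.71 without STA 1, values that depend on the prior count of the fit, since healthy 2 had no Il1rl1 UMI.

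Hp (haptoglobin, which binds free haemoglobin) was at 53.2 and 17.6 CPM in healthy 1 and healthy 2, at 1167, 472 and 140 in STA 1, mild and severe STA, and at 6013 in Il23mc 1. The arthritic hashtags differed widely among themselves and all lay above healthy (log2 change 4.17, SE 0.608, edgeR adjusted p = 0.0495). A UMI was found in 34 of 54 cells of STA 1, 5 of 13 of mild and 4 of 19 of severe STA. Healthy 1 had 18 of 49 such cells and healthy 2 had 2 of 6. In mild STA 1 cell held 116 of 174 UMIs, and in severe STA 1 cell held 51 of 64. The rise in the second experiment thus rests largely on single cells. Hp was called in 10 of 12 fits, not without the replicate block (3.61, edgeR adjusted p = 0.145) nor without Il23mc 1 (4.16, edgeR adjusted p = 0.0928). H2-Q7, a non-classical MHC class I gene, was at 1.44 and 0 CPM in the healthy hashtags and at 160, 13.5 and 13.1 in STA 1, mild and severe STA (log2 change 6.3, SE 0.661, edgeR adjusted p = 0.0202). It was called in 7 of 10 fits, and the call was lost without the replicate block (edgeR adjusted p = 0.343), without healthy 1 and without STA 1 (edgeR adjusted p = 0.601 for both). In the second experiment it rests on 5 UMIs in mild and 6 in severe STA against 0, and reads shared with related H2-Q genes could move it. It was the 1 member called among 12 MHC class I genes tested, where 0.155% of all genes tested were called.

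Icam1, the adhesion molecule that leukocyte integrins bind, was at 220 and 607 CPM in healthy 1 and healthy 2, and at 17.6, 29.8 and 21.9 in STA 1, mild and severe STA. Both healthy hashtags were high, though 68 of the 69 UMIs of healthy 2 lay in 1 cell and 43 of those of healthy 1 in another. An Icam1 UMI was found in 20 of 49 cells of healthy 1 and 2 of 6 of healthy 2. STA 1, mild and severe STA had 11 of 54, 7 of 13 and 6 of 19 such cells. Icam1 fell by 4.23 on the log2 scale (SE 0.301, edgeR adjusted p = 0.00156), and the call was lost without the highest cell of each hashtag (log2 change -2.76, edgeR adjusted p = 0.0519). Tnxb, the matrix protein tenascin-X, was at 365 and 528 CPM in healthy 1 and 2 and at 52.9, 122 and 65.7 in STA. Its RNA was more even, with a UMI in 44 of 49 Lining cells of healthy 1, 5 of 6 of healthy 2 and 21 of 54 of STA 1. It fell by 2.72 on the log2 scale (SE 0.332, edgeR adjusted p = 0.0246) and passed the test in all 12 fits.

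Ccl2, the monocyte chemokine, was at 226 and 484 CPM in the healthy hashtags, at 55.3, 106 and 65.7 in the STA hashtags and at 345 in Il23mc 1, where 68 of 101 UMIs lay in 1 cell. In healthy 2, 54 of its UMIs lay in the cell of 49434 UMIs. A Ccl2 UMI was found in 17 of 49 cells of healthy 1 and 2 of 6 of healthy 2. STA 1, mild and severe STA had 21 of 54, 7 of 13 and 9 of 19 such cells, so the share of cells with a UMI did not fall. Ccl2 fell by 2.38 on the log2 scale (SE 0.292, edgeR adjusted p = 0.0246). The call was lost without cells over 40000 UMIs (-1.04, edgeR adjusted p = 0.814), without the highest cell of each hashtag (-1.30, edgeR adjusted p = 0.285) and with thinned cells (-1.83, edgeR adjusted p = 0.191). Aqp1, a water channel, was at 196 and 484 CPM against 68.2, 117 and 92 (log2 change -1.99, SE 0.267, edgeR adjusted p = 0.0371). Ccdc3, a secreted protein, was at 230 and 431 CPM against 80, 92.1 and 116 (log2 change -1.89, SE 0.267, edgeR adjusted p = 0.0487). Of 12 fits, Aqp1 was called in 10, not without the replicate block (edgeR adjusted p = 0.0824) nor without mild STA (0.0614). Ccdc3 was called in 8, not with thinned cells (0.139), without the replicate block (0.0594), without Il23mc 1 (0.0504) or without mild STA (0.0729).

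Bglap2, an osteocalcin gene of bone-forming cells, was at 445 and 352 CPM in healthy 1 and 2 and at 122, 97.6 and 107 in STA 1, mild and severe STA (log2 change -1.91, SE 0.274, edgeR adjusted p = 0.0489). The call was lost without Il23mc 1 (edgeR adjusted p = 0.0504) and without mild STA (0.0729). The 5 osteoblast markers together summed to 423 to 571 CPM in healthy and 136 to 162 CPM in STA Lining cells, and to 31.8 to 221 CPM in sublining cells, and their part in the result was not tested. Cilp, a cartilage matrix protein, was called too (6 of 9 fits), but 96 of the 97 UMIs behind its 854 CPM in healthy 2 lay in 1 cell and healthy 1 was at 7.19 CPM.

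**Figure D4:**
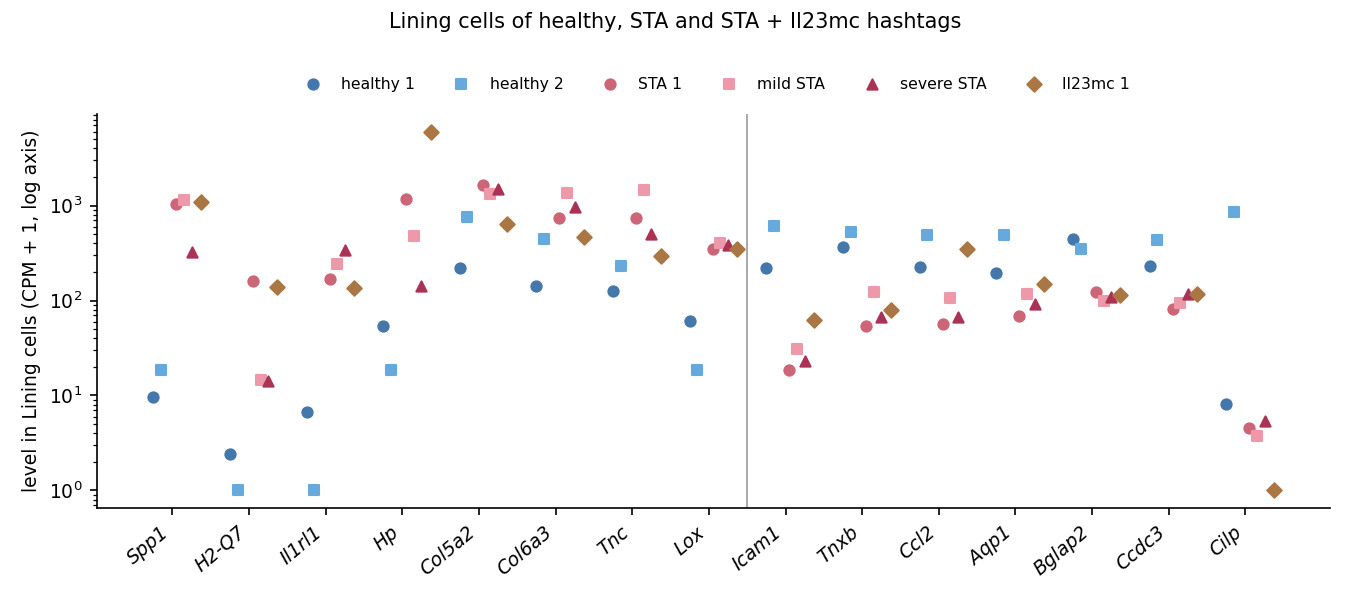
Level in Lining cells (CPM + 1, log axis) by hashtag for the 11 genes called with 6 hashtags and 4 collagen-related genes. Genes left of the line were higher in STA and those right of it lower; Spp1 lies at 17.6 CPM or less in both healthy hashtags and at 322 or more in the STA hashtags.

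Some collagen and fibre assembly genes were higher in arthritic Lining cells. Of 26 tested in the fit of 5 hashtags, 8 rose and none fell (Col3a1, Col5a1, Col5a2, Col5a3, Col6a3, Lox, Plod2 and Tnc). Of all genes, 2.13% rose and 2.31% fell. The median log2 change was 0.69 where all genes had 0.00. With 6 hashtags, none of 27 passed edgeR's test at a median of 1.02. By DESeq2 9 did, where 32 of all 7074 genes did. In edgeR without the highest cell of each gene in each hashtag 9 of 26 did, where 75 of all 5584 did. Sublining fibroblasts, tested in the same way, had 17 of 29 higher and 1 lower, where 10.3% of all genes were higher and 9.91% lower (20.2% in all).

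The values of 4 of these genes by hashtag follow. Col5a2, a fibril-forming collagen chain, was at 217 CPM in healthy 1, 766 in healthy 2, 1635 in STA 1, 1336 in mild STA and 1513 in severe STA. Col6a3, a chain of the microfibrillar collagen VI, was at 142 and 449 CPM in healthy and 747, 1352 and 966 in STA. Tnc, the injury-linked matrix protein tenascin-C, was at 124 and 229 CPM in healthy and 742, 1455 and 501 in STA. Lox, the enzyme that cross-links collagen, was at 60.4 and 17.6 CPM in healthy and 348, 401 and 383 in STA. Healthy and STA hashtags did not overlap for any of them. The 4 were chosen after their values were seen, and 27.7% of all genes tested with 5 hashtags did not overlap either. Healthy 2, with 67 of its Col5a2 UMIs in 1 cell, lay nearer to STA than healthy 1 for all but Lox. With 6 hashtags the log2 changes were 1.67 (SE 0.398, edgeR adjusted p = 0.229) for Col5a2 and 2.92 (SE 0.454, edgeR adjusted p = 0.0681) for Lox.

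Members of other groups were called in the fit of 5 hashtags. Of all 6938 genes tested there, 2.13% rose and 2.31% fell, and 27.7% did not overlap between healthy and STA. Of 19 matrix protease genes, 4 rose (Mmp2, Mmp13, Mmp14 and Mmp19) and 2 fell, and none of 20 passed with 6 hashtags. Mmp14, the membrane-bound collagenase, was at 129 and 247 CPM in healthy against 561, 439 and 580 in STA, without overlap. Mmp3 (stromelysin) was at 30.2 and 0 CPM in healthy and 120, 2081 and 13.1 in STA 1, mild and severe STA, where 1 cell of mild STA held 764 of 768 UMIs, so the STA hashtags did not share a level. Of 16 NF-kB target genes, 4 fell (Nfkbia, Nfkb1, Icam1 and Vcam1), with Icam1 called also with 6 hashtags. Nfkb1 was at 383 CPM in healthy 1 and 194 in healthy 2 and overlapped STA, where it was at 145, 290 and 188.

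Among genes of the lining list, members fell in the fit of 5 hashtags and none with 6. Of 17 tested, Clic5, Itga6, Has1 (a hyaluronan synthase) and Vcam1 fell and none rose. Over all genes tested, 2.31% fell and 2.13% rose, and 27.7% did not overlap between healthy and STA. Clic5 was at 1630 CPM in healthy 1 and 238 in healthy 2, with STA 1, mild and severe STA between them at 669, 1079 and 598. Itga6 was at 364 and 317 CPM in healthy and 78.8, 176 and 129 in STA without overlap (6 hashtags: log2 change -1.70, SE 0.382, edgeR adjusted p = 0.181). Prg4 was at 112828 and 59499 CPM in healthy and 50014, 73780 and 59449 in STA, with a log2 change over 6 hashtags of -0.52 (SE 0.427, edgeR adjusted p = 0.82). Tnfaip6, which modifies hyaluronan, was at 1403 and 1303 CPM in healthy and 2397, 2957 and 3270 in STA (log2 change 0.96, SE 0.3, edgeR adjusted p = 0.368).

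Cell cycle genes were called with 5 hashtags and not with 6. Of 21 tested with 5 hashtags, 11 rose and 1 fell, where 2.13% of all genes rose and 2.31% fell. None of 20 passed with 6 at a median log2 change of 1.42. Top2a, the mitotic topoisomerase, had no UMI in the 49 cells of healthy 1 and was at 26.4 CPM in healthy 2, 36.5 in STA 1, 144 in mild STA and 41.6 in severe STA, in 1, 11, 3 and 3 cells. Birc5 was at 0 and 79.2 CPM in healthy and 72.9, 89.4 and 15.3 in STA, with the healthy 2 UMIs in 1 cell, so that hashtag lay among the arthritic ones. Of 21 immediate early genes, 18 oxidative phosphorylation genes and 5 interferon response genes tested, none was called in either fit.

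Some genes had no UMI in healthy Lining cells. Olfr810, annotated as an olfactory receptor gene, had no UMI in either healthy hashtag and was at 123, 187 and 35 CPM in STA 1, mild and severe STA, in 26 of 54, 3 of 13 and 5 of 19 cells, at least 30.6-fold higher against a floor of 3 UMIs over the healthy group. Slc38a6, an amino acid transporter, had none in healthy and was at 54.1, 19 and 21.9 CPM (at least 10.1-fold higher). Both rose in the fit of 5 hashtags. With 6 hashtags they gave edgeR adjusted p = 0.156 and 0.102. Aldh1a2, a retinoic acid synthase, was at 59 and 52.8 CPM in healthy and 512, 84 and 412 in STA, while Aldh1a3 was at 345 and 132 in healthy and 108, 160 and 186 in STA. With 5 hashtags Aldh1a2 rose and Aldh1a3 fell.

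Among genes lower in arthritis by the 5-hashtag fit, Pcolce2, an enhancer of collagen processing, was at 529 and 132 CPM in healthy and 20, 127 and 61.3 in STA. Rarres2, the precursor of the chemoattractant chemerin, was at 308 and 194 CPM in healthy and 27, 73.2 and 81 in STA. Efemp1, a fibulin, was at 105 and 88 CPM in healthy and 8.23, 21.7 and 37.2 in STA. Gpnmb, a lysosomal glycoprotein, was at 90.6 and 79.2 CPM in healthy and 5.88, 5.42 and 24.1 in STA. The hashtags of these 4 genes did not overlap, though mild STA lay close to healthy 2 for Pcolce2. A lack of overlap was part of the rule for naming the largest changes, so it adds no support. Of all genes tested with 5 hashtags, 27.7% did not overlap. With 6 hashtags their edgeR adjusted p ran from 0.151 (Gpnmb) to 0.49 (Pcolce2).

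The change with arthritis differed between Lining and sublining fibroblasts for 124 genes, 1.04% of 11901 tested, by the class by STA term of edgeR with the hashtag as a block over all 6 hashtags. Relative to the sublining change, 56 were higher (0.471%) and 68 lower (0.571%) in Lining cells. Of the 124, 88 also changed in sublining fibroblasts: 32 of the higher ones fell there and 50 of the lower ones rose there. Of all genes tested in the sublining, 20.2% were called, 10.3% higher and 9.91% lower. The sublining change is itself part of the difference tested, so these directions are partly built in and add no support. The sublining sum itself shifted towards Mmp3+ cells, which held 10 of them in healthy 1 and 655 in STA 1. Against Mmp3+ cells alone, 15 genes were called (5 higher, 10 lower of 9099 tested).

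Of 18 lining genes, the change of 3 (Prg4, Htra4 and Hbegf) was lower and that of 1 (Timp3, a metalloproteinase inhibitor) higher in Lining cells than in the sublining sum, where all but Timp3 of these rose. Over all genes tested, 0.571% were lower and 0.471% higher. Prg4 was at 938 and 1254 CPM in sublining fibroblasts of healthy 1 and 2 and at 3920, 4080 and 2740 in STA 1, mild and severe STA, a rise of 1.72 on the log2 scale (SE 0.213, edgeR adjusted p = 0.0021). The Lining change was lower than the sublining change by a log2 difference of -2.17 (SE 0.367, edgeR adjusted p = 9.39e-05). Htra4 (-1.90, edgeR adjusted p = 0.00136) and Hbegf, the heparin-binding EGF-like growth factor (-1.94, edgeR adjusted p = 0.00112), differed the same way. Against Mmp3+ cells alone, the differences were -0.95 for Prg4, -1.30 for Htra4 and -0.55 for Hbegf, and none was called (edgeR adjusted p = 0.651, 0.511 and 0.869). Nor was any called without healthy 1, at -1.13 for Prg4, -1.60 for Htra4 and -0.89 for Hbegf (edgeR adjusted p = 0.773, 0.115 and 0.66), or without STA 1, at -1.12, -1.60 and -0.88 (edgeR adjusted p = 0.762, 0.164 and 0.679). The Prg4 difference was also not called with thinned cells (-1.84, edgeR adjusted p = 0.0986). Prg4 and Htra4 are markers of the Lining annotation, which was drawn from these same cells. Their p-values therefore depend on how cells were assigned to the classes. Of 1658 Mmp3+ cells, 61 had a UMI of at least 3 of the Lining markers.

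Matrix genes differed too. Matn4, the matrilin-4 matrix adaptor, was at 219 and 229 CPM in healthy Lining cells and 74.1, 127 and 98.5 in STA, and at 16.5 and 9.37 CPM in healthy sublining fibroblasts and 60.2, 70.1 and 53 in STA. All 3 STA hashtags lay below both healthy ones in Lining cells and above both in the sublining. The log2 difference was -3.68 (SE 0.375, edgeR adjusted p = 4.68e-11) against all sublining cells and -4.23 (SE 0.526, edgeR adjusted p = 0.013) against Mmp3+ cells alone, and it was called in all 15 fits that gave an adjusted p. Col22a1 was at 485 and 607 CPM in healthy Lining cells and 761, 566 and 565 in STA, and rose in sublining fibroblasts from 1.47 and 0.669 to 16.4, 34.1 and 12.1 CPM, a log2 difference of -3.94 (SE 0.552, edgeR adjusted p = 1.17e-06). Against Mmp3+ cells alone it was -4.08 and not called (edgeR adjusted p = 0.249).

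In the other direction, Thy1 was at 1.44 and 0 CPM in healthy Lining cells and 17.6, 27.1 and 21.9 in STA, found in 1 of 49, 0 of 6, 4 of 54, 1 of 13 and 3 of 19 cells, and at 184, 178, 87.6, 119 and 171 CPM in the sublining (log2 difference 4.59, SE 0.951, edgeR adjusted p = 0.00283). These are few UMIs, and Thy1 was called in 10 of 15 fits. The call was lost without the highest cell of each hashtag (edgeR adjusted p = 0.11), without healthy 1 (0.335), without STA 1 (0.334), against Mmp3+ cells alone (0.779) and with thinned cells (1.0). Cd34, the sialomucin of sublining progenitor-like cells, fell in the sublining from 883 and 843 to 211, 267 and 382 CPM and was at 47.5, 308, 119, 73.2 and 285 CPM in Lining cells in the same order (log2 difference 1.67, SE 0.422, edgeR adjusted p = 0.0248). In healthy 2, 32 of its 35 Lining UMIs lay in 1 cell. The Cd34 difference was called in 10 of 16 fits, at 3.19 without healthy 2 and 0.56 without healthy 1 (edgeR adjusted p = 0.886), and not by DESeq2 (adjusted p = 0.36) or against Mmp3+ cells alone (1.03, edgeR adjusted p = 0.733), without the replicate block (0.161), without STA 1 (0.874) or without Il23mc 1 (0.197).

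Spp1 (2.43, edgeR adjusted p = 0.0069) and Il1rl1 (2.78, edgeR adjusted p = 0.0156) rose in both classes with a larger log2 change in Lining cells, and Icam1 (-2.43, edgeR adjusted p = 4.91e-05) fell in both with a larger one. The Spp1 difference was called in 10 of 16 fits, and not by DESeq2 (adjusted p = 0.0736), without healthy 2 (1.74, edgeR adjusted p = 0.507), without Il23mc 1 (edgeR adjusted p = 0.0781), without the replicate block (0.0883), with thinned cells (0.66) or without the highest cell of each hashtag (1.90, edgeR adjusted p = 0.18). The Il1rl1 difference was called in 9 of 15 fits, and not against Mmp3+ cells alone (2.70, edgeR adjusted p = 0.668), with thinned cells (0.99, edgeR adjusted p = 1.0) or without healthy 1, STA 1, Il23mc 1 or healthy 2 (edgeR adjusted p from 0.0643 to 0.0952). The Icam1 difference was called in 13 of 16 fits, and was -0.70 without the highest cell of each hashtag (edgeR adjusted p = 0.913), -1.57 without healthy 2 (edgeR adjusted p = 0.2) and -1.59 with thinned cells (edgeR adjusted p = 1.0).

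**Figure D5:**
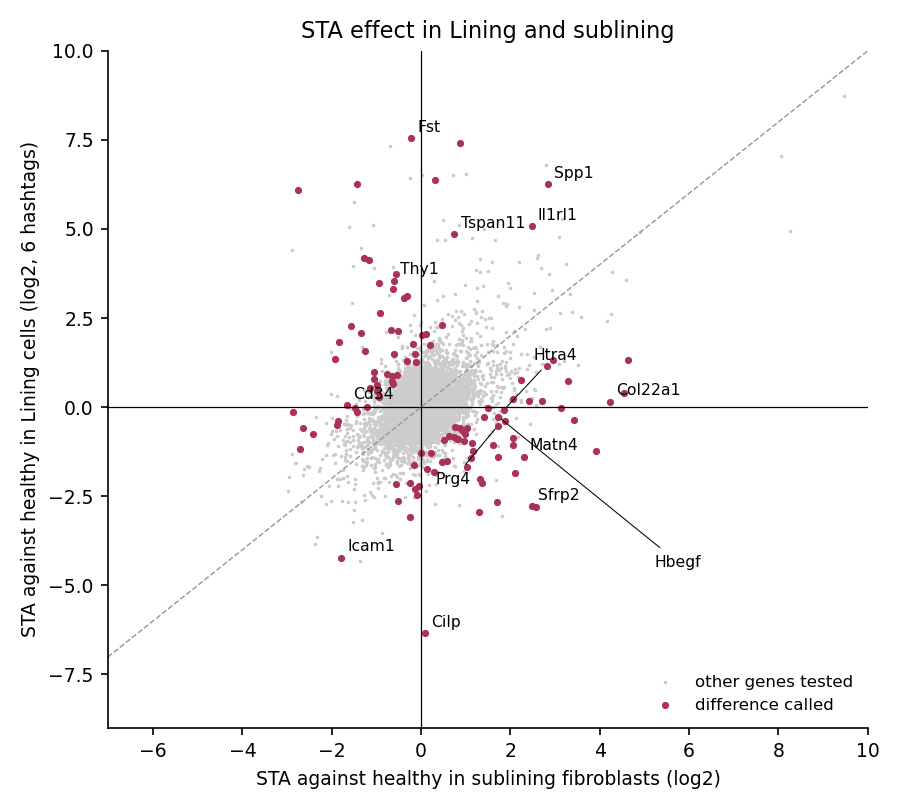
Log2 change with STA in sublining fibroblasts (x axis) and in Lining cells (y axis, fit of 6 hashtags) for 7062 genes. Red points are the 117 plotted genes whose change differed between the classes, and the dashed line marks equal change; Prg4, Htra4 and Col22a1 lie right of it with Lining changes of -0.52, -0.08 and 0.15.

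STA with and without the interleukin-23 minicircle were 1 hashtag each of 1 well, so their Lining cells were compared without a test. Of 2584 genes with 50 UMIs over both, 9 were at least 4-fold higher with the minicircle (0.348%) and 23 lower (0.89%). Lcn2, the iron-scavenging lipocalin, was at 270 CPM in Il23mc 1 and 21.2 in STA 1 (log2 ratio 3.67, 95% counting interval 2.92 to 4.50). Serpina3n, a protease inhibitor of the acute phase, was at 215 and 21.2 CPM (3.35, 2.57 to 4.19), found in 12 of 17 and 12 of 54 cells. Metallothionein Mt1 was at 17129 and 3701 CPM (2.21, 2.15 to 2.28), in every cell of both. Hp was at 6013 and 1167 CPM, 1019 of its 1759 UMIs in 1 cell, and Sema3d and Ccl2 likewise had most UMIs in 1 cell (65 of 81 and 68 of 101).

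Genes lower with the minicircle included cell cycle genes. Ube2c and Cenpf had no UMI in its 17 Lining cells and 80 and 55 UMIs in STA 1, though 57 of the 80 Ube2c UMIs lay in 1 cell. Igf1, the insulin-like growth factor, was at 3.42 and 61.1 CPM (log2 ratio -4.16, interval -9.49 to -1.62), found in 1 of 17 and 19 of 54 cells. Among Lining markers, Prg4 was at 56938 and 50014 CPM and Clic5 at 663 and 669, while Htra4 was at 499 and 1001 (interval of the log2 ratio -1.27 to -0.75). The intervals cover counting error within these hashtags.

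Severe and mild STA, also 1 hashtag each, differed by at least 4-fold in 35 of 1539 genes, 21 higher in severe (1.36%) and 14 lower (0.91%), and in 13 genes without the highest cell of each gene in each hashtag. The named genes rest largely on single cells. Krt14 was at 839 CPM in severe and 5.42 in mild STA with 380 of 383 UMIs in 1 cell, and Sfn and Aqp3 had 256 of 258 and 106 of 106 UMIs in 1 cell. Mmp3, Mmp13 and Cxcl14 were lower in severe STA, with 764 of 768, 299 of 306 and 439 of 441 of the UMIs of mild STA in 1 cell. Fbn2, a microfibril fibrillin, was spread wider, at 155 CPM in severe (9 of 19 cells) and 2.71 in mild STA (1 of 13 cells), a log2 ratio of 5.84 (interval 3.32 to 11.17). Bmp2, a bone morphogenetic protein, was at 19.7 CPM in severe and 518 in mild STA (log2 ratio -4.71, interval -5.87 to -3.76), in 4 of 19 and 9 of 13 cells.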

How the data were processed

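Raw UMI counts per gene and cell were deposited by the authors for 2 fibroblast wells. Their headers name Cell Ranger 6.1.2, while 6.0.6 and the build mm10 stand in the submitters' processing notes. The authors' deposited table gave annotation, hashtag call, UMI count and mitochondrial fraction of each kept cell, and their hashtag margin and stress scores were deposited but not used. Filters, doublet removal and annotation methods are not given in the sources used here, and no doublet caller was run. Barcodes were joined to the counts (3 of 3551 had no match, none of them Lining). UMIs of Lining and of sublining cells were summed per hashtag and tested with edgeR 4.0.16 (TMM, filterByExpr, quasi-likelihood, Benjamini-Hochberg threshold 0.05, experiment or hashtag as block), after tests on simulated data. DESeq2 1.42.0, other filters, thinning of each cell to 3000 UMIs and left-out hashtags or cells were alternatives. Hashtags under 10 Lining cells stayed out of the designed fit. The fit of 6 hashtags was added after seeing the data. Named genes were the up to 10 largest called changes per direction without overlap, listed pathway members and set markers. The 11 genes called with 6 hashtags and the choice among list members shown by hashtag were made after their values were seen. Pairing by experiment follows the wells (correlation of the deviations of healthy and STA 0.108 over 6938 genes). Members and gene lists were chosen with earlier results of these data known. Gene positions are from GENCODE M21. The result of 1 gene is not reported here.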

Additional observations from a re-analysis of the deposited data

Results flagged for a closer look

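The change with STA differed between Lining and sublining fibroblasts for 124 genes (edgeR, class by STA term, adjusted p under 0.05), and the named ones are given here as the log2 difference of Lining minus sublining change. Lower in Lining cells were the lining genes Prg4 (-2.17), Hbegf (-1.94) and Htra4 (-1.90), the matrix genes Col22a1 (-3.94), Matn4 (-3.68) and Cilp (-6.54), the Wnt antagonists Sfrp2 (-5.97) and Sfrp1 (-3.76), and Icam1 (-2.43), Tmem196 (-4.06), Chl1 (-3.75), Cd14 (-3.74), Cpxm1 (-3.29) and Steap1 (-3.15). Of the Sfrp2 UMIs of healthy 1 Lining cells 34 lay in 1 cell, and of the Sfrp1 UMIs of healthy 2 all 44 did. Prg4 and Htra4 are markers of the annotation, so their p-values depend on how cells were assigned to the classes.

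Higher in Lining cells were Thy1 (4.59), Cd34 (1.67), Spp1 (2.43), Il1rl1 (2.78), Fst (10.73), Slc38a6 (9.46), Tspan11 (4.43), Serpinb2 (5.09), Crlf3 (3.69) and Itga9 (3.01), and the epithelial-type genes Aqp3 (4.41), Sfn (3.44) and Jup (3.61). Fst and Slc38a6 had no UMI in healthy Lining cells, so their values depend on the prior count of the fit and are no measure of size. In severe STA, 1 cell held 106 Aqp3, 256 Sfn and 126 Fst UMIs.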

How the results depend on the processing

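Few Lining cells limit every comparison. The count of 308 called with 5 hashtags was 26 by DESeq2 (which gave 4573 genes no adjusted p), 81 without the replicate block, 0 with the same number of Lining cells per hashtag (483 genes at an unadjusted p under 0.05), 115 without cells holding Ptprc, Pecam1, Acan or Col2a1, 57 with cells thinned to 3000 UMIs, 182 without cells over 40000 UMIs and 11 with all 6 hashtags. Leaving out Il23mc 1 gave 324, healthy 2 was not part of that fit, and leaving out healthy 1 or an STA hashtag could not be fitted. The count of 11 was 33 with thinned cells, 32 by DESeq2 (2880 without an adjusted p), 75 without the highest cell per gene, 40 without cells over 40000 UMIs, 13 without the replicate block, and 6 to 308 with 1 hashtag left out (6 without Il23mc 1, 308 without healthy 2, 74 without healthy 1, 71 without STA 1, 20 without mild and 91 without severe STA). Without healthy 1, 186 of 297 genes called with 5 hashtags kept their sign.

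The 124 class differences were 20 by DESeq2 (11075 without an adjusted p), 189 with DESeq2 size factors, 15 against Mmp3+ cells, 55 without the replicate block, 19 with thinned cells and 41 to 168 with 1 hashtag left out (41 without Il23mc 1). Reversed were Ccl7 (0.14) and Sfrp1 (2.74) without the highest cell, Sfrp1 (0.36) with thinned cells, and Sfrp2 without healthy 1 (4.20) or STA 1 (3.79), over a range of -6.48 to 4.20 with 1 hashtag left out. The share difference of -2.34 points became 4.12 without Mmp3+ cells and ran from -7.22 to 2.55 with 1 hashtag left out. The 35 genes of severe against mild STA became 13 without the highest cell. The 108 genes lower than in sublining cells became 71 against Mmp3+ cells. The cause was not tested. Lining cells with a Prg4 UMI are all Lining cells.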
